A study of Mus musculus with 11 samples.

Results

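The genes described here encode the chains of collagen, the most abundant protein family of the extracellular matrix. They were chosen as every symbol of the deposited gene table that consists of Col, a chain type number, the letter a and a chain number. This gave 40 of 15274 genes. They were grouped by what their proteins form: 8 fibrillar collagen genes of soft tissue, 5 genes of FACIT collagens, 5 of type VI collagen, 9 of the basement membrane and its anchoring zone, 5 of cartilage, and 8 others. Of these genes 38 passed a filter on low values and were tested, and Col2a1 and Col17a1 were not.

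RNA sequencing was analysed in 11 libraries from the hearts of 6 mice, all 8 weeks old, with day 7 named in the sample titles. An uninjured and an injured region were taken from hearts of 2 inbred strains, C57BL/6J (B6) and C3H/HeJ (C3H). There were 3 uninjured and 3 injured libraries of B6, and 3 uninjured and 2 injured libraries of C3H. No transgene or drug is named for any group, every mouse is an animal of its own, and C3H mouse 3 has an uninjured library only. Per the series' design, injured and uninjured regions come from the same hearts. The sources used here do not name the kind of injury.

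A collagen molecule is a triple helix of 3 chains with glycine at regular steps along each chain, and the chains can be equal or come from different genes. Fibroblasts and related cells secrete types I, III and V, which form the fibres that hold heart muscle together and that make up a scar. Type IV chains form the sheet of the basement membrane around muscle cells and vessels. Type VI chains form beaded filaments near cells, FACIT collagens sit on the surface of fibres, and types II, IX and XI are best known from cartilage.

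For 31 of the 40 genes RefSeq promoters were at hand (33 promoters, build GRCm38.p6, each with 250 bases before and 50 bases from the annotated start on). The stretches here are shown because they belong to genes on which the results turn, and they differ in the motif matches that they hold. Capitals mark matches to the TATA box TATAAA, the CCAAT box (read as ATTGG from the other strand) and the GC box GGGCGG. Each stretch is the 150 bases before the start, on the plus strand. Col3a1 lies at chr1:45311388-45311537, Col1a2 at chr6:4505468-4505617 and Col11a1 at chr3:114030390-114030539.
Col3a1: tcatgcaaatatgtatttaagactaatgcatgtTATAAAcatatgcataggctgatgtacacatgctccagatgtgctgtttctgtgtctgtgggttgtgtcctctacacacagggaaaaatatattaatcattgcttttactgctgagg
Col1a2: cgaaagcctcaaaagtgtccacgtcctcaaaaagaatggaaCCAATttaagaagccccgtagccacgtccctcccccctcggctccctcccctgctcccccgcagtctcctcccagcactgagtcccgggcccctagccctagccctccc
Col11a1: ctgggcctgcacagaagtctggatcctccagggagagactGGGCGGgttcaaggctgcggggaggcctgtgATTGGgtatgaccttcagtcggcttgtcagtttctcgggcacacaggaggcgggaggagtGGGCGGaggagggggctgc

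Within these 150 bases Col3a1 matched TATAAA, Col1a2 matched CCAAT, and Col11a1 matched GGGCGG at 2 places and CCAAT on the minus strand. Over the whole window of 300 bases, both strands searched, GGGCGG was found in 22 of the 33 collagen promoters (66.7%), against 35.7% of all 32851 promoters in the table. For CCAAT the numbers were 11 of 33 (33.3%) and 37.4% of all, and for TATAAA 4 of 33 (12.1%) and 13.6%. A match to TGTGGT, the core of Runx sites, was present in 3 (9.09%) against 16.8% of all promoters, and ACAAAG, a core of Sox sites, in 4 (12.1%) against 18.7%. The motifs do not overlap one another, and a match describes the letters of the window only. How far a match lies from the start was not weighed, so a match to TATAAA does not show a working TATA box.

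Col4a1 and Col4a2, whose chains build the common basement membrane trimer, are transcribed away from each other from a shared start. Their annotated starts overlap by the 22 bases at chr8:11312805-11312826 (GRCm38.p6, plus strand), which are shown because both genes begin in them, and their promoter windows share 78 bases. Capitals again mark a match to GGGCGG.
Col4a1 and Col4a2: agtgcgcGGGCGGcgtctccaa

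Values are the deposited normalised counts, that is, the reads of a gene divided by a size factor of the library. Libraries held 9699985 to 22138459 reads in genes. All 8 cardiomyocyte markers were detected in every library, and their summed level was 1090610 to 1343330 in B6 uninjured, 629221 to 795798 in B6 injured, 1408360 to 1478130 in C3H uninjured and 453645 to 478848 in C3H injured libraries. Xist was at 3.14 to 12.2 in B6 and 1840 to 8478 in C3H libraries, with Y-linked genes the other way round, so strain and sex cannot be told apart. Reads of both strains were aligned to mm9, a B6 genome, and an effect of this on C3H counts was not tested.

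Collagen genes took 1.52% ± 0.667 (SD, n = 3) of all reads in B6 uninjured libraries, with 2.25%, 0.948% and 1.36% in libraries 1 to 3. In B6 injured libraries the share was 2.75%, 3.10% and 3.39% (mean 3.08% ± 0.322, SD, n = 3). C3H uninjured libraries 1 to 3 had 1.72%, 0.187% and 0.529%, and C3H injured libraries 1 and 2 had 5.77% and 4.12%. Injured libraries thus lay above all uninjured libraries of their strain. The C3H uninjured libraries were spread widely, with library 1 highest and library 2 lowest. Results that rest on library 1 are given with and without it. For Col1a1, Col3a1 and Col6a3 the C3H difference without library 2 is given too. Other fits without library 2 enter only the counts and ranges over alternatives. Over all tested genes 1937 rose in C3H without library 2, against 2253 with all libraries.

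**Figure D1:**
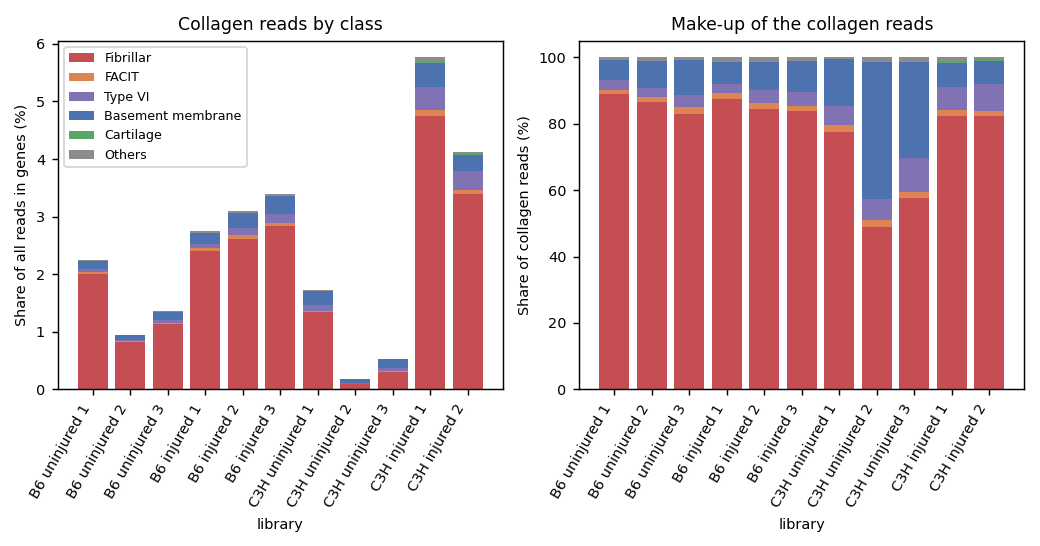
Stacked bars show, for each of the 11 libraries, the reads of the 6 collagen classes as a percentage of all reads in genes (left) and of all collagen reads (right). The 2 C3H injured libraries have the tallest bars (5.77% and 4.12%), and C3H uninjured libraries 2 and 3 have the largest basement membrane fraction (41.1% and 29.1% of collagen reads).

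Within the collagen reads, the fibrillar genes made up 77.7% to 88.9% in 9 of the 11 libraries. The exceptions were C3H uninjured libraries 2 and 3, with 48.7% and 57.6%, where basement membrane genes took 41.1% and 29.1%. Basement membrane genes took 14.0% of collagen reads in C3H uninjured library 1 and 6.08% to 10.3% in B6 and in injured C3H libraries.

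**Figure D2:**
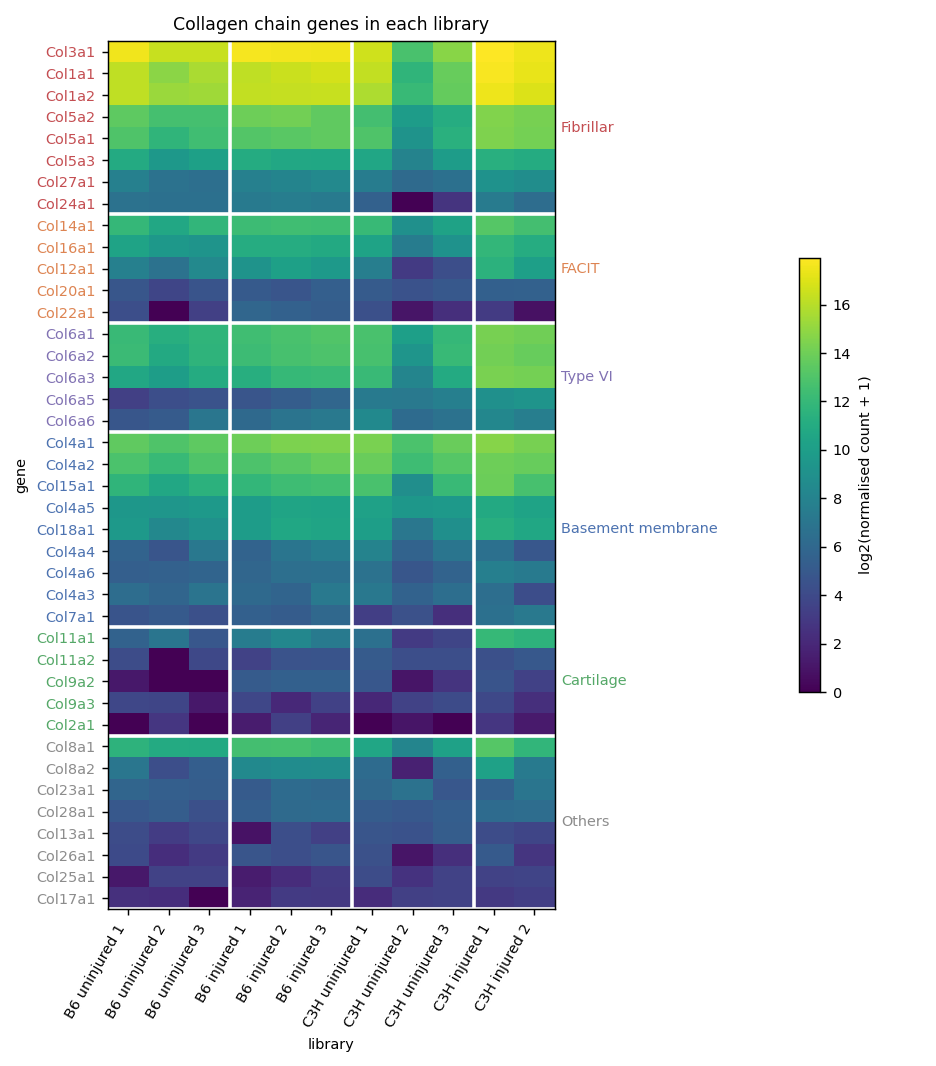
The heat map shows log2(normalised count + 1) of the 40 collagen genes (rows, coloured by class) in the 11 libraries (columns, white lines between groups). Col3a1, Col1a1 and Col1a2 are the brightest rows, and C3H uninjured library 2 has the lowest value of all 11 libraries for each of the 8 fibrillar genes, for Col12a1, Col14a1 and Col16a1, and for Col6a1, Col6a2 and Col6a3.

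Injury was compared within each strain with a linear model of log2(normalised count + 1) over all 11 libraries, and a gene was called at an adjusted p under 0.05 (limma, Benjamini-Hochberg over 14751 genes). In C3H 23 of the 38 tested collagen genes rose and 0 fell, where 15.3% of all tested genes rose and 15.4% fell. Their median difference was 1.91 on the log2 scale, against 0.01 over all tested genes, and 33 of the 38 differences were positive. In B6 0 collagen genes were called, where 0.0136% of all genes rose (2 genes) and 0% fell. Even so 35 of 38 differences were positive in B6, against 51.2% of all tested genes, with a median of 0.93 against 0.01. An unadjusted p under 0.05 was found for 13 of the 38, and for 1979 of all 14751 genes. Of the collagen genes edgeR called 0 and DESeq2 1 in B6, where DESeq2 called 31 of all tested genes higher and 14 lower. With the animal as a block limma called 2 there, Col9a2 (adjusted p = 0.0233) and Col8a2 (adjusted p = 0.0432), where 0.115% of all genes rose. In bulk tissue, fewer cells of a type and less RNA per cell cannot be told apart.

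**Figure D3:**
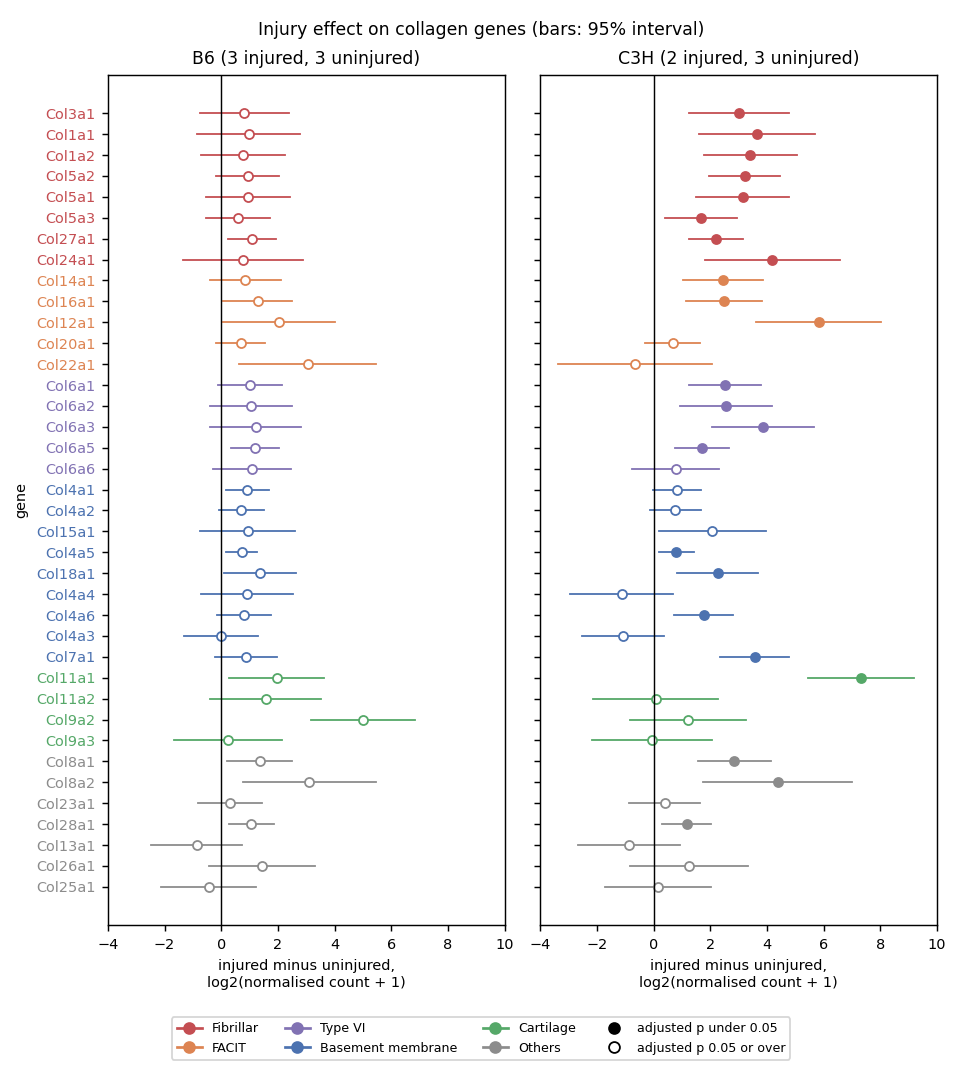
Points show the injured minus uninjured difference in log2(normalised count + 1) of the 38 tested genes in B6 (left) and C3H (right), with 95% intervals as bars and filled points for an adjusted p under 0.05. All points of B6 are open, whereas 23 of C3H are filled, among them all 8 fibrillar genes. The B6 point of Col9a2 rests on 1 read in the uninjured libraries.

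Libraries of the groups did not overlap for 26 of the 38 genes in B6, all higher in injured regions, where 9.83% of all tested genes were higher and 7.69% lower without overlap. In C3H 24 genes were higher without overlap (29.6% of all genes) and 1, Col13a1, was lower (29.7% of all genes). The call in C3H depended on its 2 injured libraries. Without C3H injured library 1 the genes called were 10, of which 9 rose and Col4a3 fell, where 9.32% of all genes rose and 9.67% fell. Without C3H injured library 2 they were 10 too, all higher, where 6.71% of all genes rose. With only the C3H libraries in the fit they were 12, where 12.7% of all genes rose. Genes called in all 23 alternative analyses were Col1a2, Col5a2, Col27a1, Col11a1, Col12a1, Col6a3 and Col7a1.

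Fibrillar collagens were the class with the most calls in C3H. All 8 rose there, with a median of 3.17, and none of the 8 was called in B6, where the median was 0.87. Col3a1, Col1a1 and Col1a2 had the highest levels per kilobase of transcript of all members in every group. In C3H injured libraries these were 39066 ± 8212 normalised counts per kb for Col3a1, 32936 ± 7203 for Col1a1 and 29322 ± 7681 for Col1a2 (SD, n = 2). In C3H uninjured libraries they were 8058 ± 8839, 5415 ± 6938 and 4418 ± 4869 (SD, n = 3), with SDs above the means.

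Col1a1 encodes the alpha-1 chain of type I collagen, the main component of scar fibres. Its normalised counts were 74734, 28299 and 50472 in B6 uninjured libraries 1 to 3, 75903, 91923 and 113665 in B6 injured libraries 1 to 3, 79234, 3346 and 13753 in C3H uninjured libraries 1 to 3, and 225512 and 165107 in C3H injured libraries 1 and 2. The injured libraries lay above all uninjured libraries of the same strain, in B6 by 75903 against 74734. The difference was 3.65 (SE 0.94, adjusted p = 0.0124) in C3H and 0.96 (SE 0.84, adjusted p = 0.601) in B6 on the log2 scale.

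Col3a1 encodes type III collagen, which is laid down with type I and early in repair. It had normalised counts of 187413, 88160 and 88719 in B6 uninjured libraries 1 to 3, 213677, 198792 and 188689 in B6 injured libraries 1 to 3, 100456, 7115 and 26936 in C3H uninjured libraries 1 to 3, and 249675 and 185054 in C3H injured libraries 1 and 2. Injured and uninjured B6 libraries were separated by 188689 against 187413, a gap far smaller than the spread among uninjured libraries. The injured minus uninjured difference was 3.00 (SE 0.81, adjusted p = 0.0158) in C3H and 0.82 (SE 0.73, adjusted p = 0.610) in B6. Col1a2, the partner of Col1a1, had 3.41 (SE 0.76, adjusted p = 0.00590) in C3H and 0.75 (SE 0.68, adjusted p = 0.613) in B6.

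Type V chains start the assembly of type I fibres. Col5a2 rose in C3H by 3.21 (SE 0.57, adjusted p = 0.00186), Col5a1 by 3.14 (SE 0.76, adjusted p = 0.00936) and Col5a3 by 1.67 (SE 0.59, adjusted p = 0.0480). Of the less abundant fibrillar genes, Col24a1, known from developing bone and cornea, had normalised counts of 106, 99.5 and 95.4 in B6 uninjured libraries 1 to 3, 166, 190.1 and 159 in B6 injured libraries 1 to 3, 47.5, 0 and 5.33 in C3H uninjured libraries 1 to 3, and 172 and 85.5 in C3H injured libraries 1 and 2. Its 3 C3H uninjured libraries were all below every B6 library, and C3H uninjured library 2 had 0 reads. Col24a1 rose by 4.18 (SE 1.09, adjusted p = 0.0134) in C3H, and Col27a1, a fibrillar gene of cartilage and other tissues, by 2.19 (SE 0.44, adjusted p = 0.00341).

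Adjusted p in C3H without injured library 1 and without injured library 2 was 0.0757 and 0.0637 for Col1a1, 0.0934 and 0.0733 for Col3a1, 0.0972 and 0.0555 for Col24a1, 0.0600 and 0.0547 for Col5a1 and 0.195 and 0.146 for Col5a3, so these calls were lost without either library. Col1a2 kept its call (0.0476 and 0.0386), as did Col5a2 (0.0177 and 0.0206) and Col27a1 (0.0334 and 0.0278). Without C3H uninjured library 1 the differences were larger, at 4.83 (adjusted p = 0.000401) for Col1a1 and 3.96 (adjusted p = 0.00100) for Col3a1. Without C3H uninjured library 2 they were smaller, at 2.55 for Col1a1 and 2.05 for Col3a1. Col5a3 was called in 13 of the 23 alternatives only.

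FACIT collagens bind to the surface of fibres and have interrupted helices. Of 5 genes 3 rose in C3H (Col12a1, Col14a1 and Col16a1) and Col20a1 and Col22a1 were not called, with a class median of 2.44. Col12a1, whose product lies between fibres of tendon and other loaded tissue, had normalised counts of 227, 106 and 348 in B6 uninjured libraries 1 to 3, 599, 1149 and 850.1 in B6 injured libraries 1 to 3, 205, 7.33 and 18.6 in C3H uninjured libraries 1 to 3, and 2959 and 1137 in C3H injured libraries 1 and 2. C3H uninjured libraries 2 and 3 were far below all other libraries, and the injured libraries of each strain lay above the uninjured ones. It rose by 5.83 (SE 1.01, adjusted p = 0.00166) in C3H and was at 2.04 (SE 0.91, adjusted p = 0.371) in B6.

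Col14a1, a regulator of fibre diameter, was the most abundant FACIT gene per kilobase, with 3996, 1752 and 3552 in B6 uninjured libraries 1 to 3, 5033, 5574 and 5199 in B6 injured libraries 1 to 3, 4236, 515 and 1301 in C3H uninjured libraries 1 to 3, and 9622 and 6169 in C3H injured libraries 1 and 2. B6 injured libraries spanned a narrow range above the B6 uninjured ones. The difference was 2.44 (SE 0.65, adjusted p = 0.0143) in C3H and 0.85 (SE 0.58, adjusted p = 0.511) in B6. For Col16a1, a minor FACIT chain of skin and other tissues, the counts were 1381, 740.4 and 621 in B6 uninjured libraries 1 to 3, 2168, 2192 and 1906 in B6 injured libraries 1 to 3, 1332, 183 and 551 in C3H uninjured libraries 1 to 3, and 3788 and 2188 in C3H injured libraries 1 and 2. The groups did not overlap in either strain. The injury difference was 2.49 (SE 0.62, adjusted p = 0.0107) in C3H and 1.28 (SE 0.55, adjusted p = 0.367) in B6.

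Without C3H injured library 1 and without C3H injured library 2, adjusted p was 0.104 and 0.0555 for Col14a1, whose call was lost in both. It was 0.0915 and 0.0414 for Col16a1 and 0.0199 and 0.0137 for Col12a1. Without C3H uninjured library 1 the difference of Col12a1 in C3H was 7.16 (adjusted p = 4.92e-05). Over the 23 alternatives it lay between 4.73 and 7.16.

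Col22a1, known from junctions of muscle and tendon, was singled out after its values were seen. Its normalised counts were 18.9, 0 and 9.43 in B6 uninjured libraries 1 to 3, 60.3, 47.1 and 38.7 in B6 injured libraries 1 to 3, 19.8, 1.05 and 4.44 in C3H uninjured libraries 1 to 3, and 7.78 and 0.707 in C3H injured libraries 1 and 2. All 3 B6 injured libraries lay above all other libraries, whereas C3H injured and uninjured libraries overlapped. The difference was 3.05 (SE 1.11, adjusted p = 0.364) in B6 and -0.67 (SE 1.24, adjusted p = 0.712) in C3H, where it changed sign without C3H uninjured library 1 (0.21) and without C3H injured library 2 (0.52). The interaction term was -3.71 (SE 1.67, adjusted p = 0.340).

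Type VI collagen forms beaded filaments from the chains of Col6a1, Col6a2 and a longer chain such as that of Col6a3, Col6a5 or Col6a6. In C3H 4 of 5 genes rose (median 2.51), and Col6a6 was not called (0.78 (SE 0.71, adjusted p = 0.428)). In B6 none was called, and the 5 differences lay between 1.02 and 1.21.

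Col6a1 had normalised counts of 4656, 2437 and 3481 in B6 uninjured libraries 1 to 3, 5516, 6955 and 8553 in B6 injured libraries 1 to 3, 7159, 1100 and 3966 in C3H uninjured libraries 1 to 3, and 19130 and 16890 in C3H injured libraries 1 and 2. For Col6a2 they were 4771, 1931 and 3275 in B6 uninjured libraries 1 to 3, 5009, 6777 and 7759 in B6 injured libraries 1 to 3, 6858, 652 and 4251 in C3H uninjured libraries 1 to 3, and 17714 and 13948 in C3H injured libraries 1 and 2. Both genes were lowest in C3H uninjured library 2 and highest in the C3H injured libraries. Col6a1 rose in C3H by 2.51 (SE 0.58, adjusted p = 0.00739) and Col6a2 by 2.56 (SE 0.74, adjusted p = 0.0219).

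Col6a3 had 1750, 1004 and 2132 in B6 uninjured libraries 1 to 3, 2402, 4187 and 4598 in B6 injured libraries 1 to 3, 4455, 279.5 and 1982 in C3H uninjured libraries 1 to 3, and 20684 and 18705 in C3H injured libraries 1 and 2. The C3H injured libraries were more than 4 times as high as any other library. The difference was 3.86 (SE 0.83, adjusted p = 0.00496) in C3H and 1.21 (SE 0.74, adjusted p = 0.471) in B6. Without C3H injured library 1 and without C3H injured library 2, adjusted p was 0.0340 and 0.0423 for Col6a3, 0.0484 and 0.0509 for Col6a1, 0.114 and 0.0908 for Col6a2 and 0.0492 and 0.104 for Col6a5, so that Col6a2 lost its call in both and Col6a1 and Col6a5 in the second. Without C3H uninjured library 1 the difference of Col6a3 was 4.72 (adjusted p = 0.000832), and without C3H uninjured library 2 it was 2.73.

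Col6a5 differed between the strains in both regions. Its normalised counts were 9.47, 18.7 and 23.6 in B6 uninjured libraries 1 to 3, 25.3, 37.7 and 59.3 in B6 injured libraries 1 to 3, 158, 149.7 and 209 in C3H uninjured libraries 1 to 3, and 506 and 611 in C3H injured libraries 1 and 2. Every C3H library lay above every B6 library. C3H exceeded B6 by 3.32 (SE 0.39, adjusted p = 0.000667) in uninjured and by 3.82 (SE 0.43, adjusted p = 0.000431) in injured regions. The injury difference was 1.70 (SE 0.43, adjusted p = 0.0119) in C3H and 1.20 (SE 0.39, adjusted p = 0.364) in B6. Together with its neighbour gene Col6a6 it belongs to the later described chains of type VI, and Col6a6 was at 1.52 (SE 0.63, adjusted p = 0.254) and 1.22 (SE 0.71, adjusted p = 0.323) for C3H against B6 in uninjured and injured regions.

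Of the 9 basement membrane genes 4 rose in C3H (Col7a1, Col18a1, Col4a6 and Col4a5), with a median of 0.82, and in B6 none was called, with a median of 0.88. Col4a1 and Col4a2, the pair with the shared start, encode the ubiquitous chains of type IV collagen.

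Col4a1 had normalised counts of 12048, 8080 and 11608 in B6 uninjured libraries 1 to 3, 15735, 21116 and 22958 in B6 injured libraries 1 to 3, 20396, 7433 and 14560 in C3H uninjured libraries 1 to 3, and 26718 and 19790 in C3H injured libraries 1 and 2. The 3 B6 injured libraries lay above the 3 uninjured ones, and in C3H the groups overlapped. Its injury difference was 0.92 (SE 0.35, adjusted p = 0.364) in B6 and 0.82 (SE 0.39, adjusted p = 0.128) in C3H. Col4a2 had 7393, 4397 and 8051 in B6 uninjured libraries 1 to 3, 7844, 10523 and 13902 in B6 injured libraries 1 to 3, 14674, 5172 and 9508 in C3H uninjured libraries 1 to 3, and 16402 and 14127 in C3H injured libraries 1 and 2. In both strains its groups overlapped, with differences of 0.71 (SE 0.37, adjusted p = 0.417) in B6 and 0.76 (SE 0.41, adjusted p = 0.181) in C3H. Without C3H uninjured library 1 both genes passed the threshold in C3H, at 1.14 (adjusted p = 0.0360) for Col4a1 and 1.12 (adjusted p = 0.0476) for Col4a2, where 15.9% of all genes rose.

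The type IV chains of specialised membranes, such as those of the kidney, were low. Col4a3 and Col4a4 were at -1.08 (SE 0.67, adjusted p = 0.238) and -1.13 (SE 0.83, adjusted p = 0.323) in C3H, and these 2 genes were chosen after their values were seen. With the animal as a block adjusted p of Col4a3 in C3H was 0.0440, where 17.2% of all genes fell. Without C3H injured library 1 it was 0.0490 at a difference of -2.20, and without C3H injured library 2 the difference was 0.03. Col4a5 and Col4a6, a further pair of type IV chains, rose in C3H by 0.81 (SE 0.28, adjusted p = 0.0440) and 1.76 (SE 0.48, adjusted p = 0.0170). Both calls were lost without C3H injured library 1 or 2 (adjusted p 0.299 and 0.0686 for Col4a5, 0.117 and 0.0685 for Col4a6), and that of Col4a5 held in 12 of the 23 alternatives.

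Col7a1, the chain of the anchoring fibrils that tie a basement membrane to the tissue below, rose in C3H by 3.56 (SE 0.56, adjusted p = 0.000917) at low counts. It was at 8.91, 20.9 and 4.44 in C3H uninjured libraries and 98.6 and 155 in the injured ones, against 23.7, 33.2 and 20.0 in B6 uninjured and 43.2, 36.9 and 64.5 in B6 injured libraries. The injured groups thus lay above the uninjured groups in both strains. Col18a1, the source of endostatin, rose in C3H by 2.26 (SE 0.65, adjusted p = 0.0215) (without C3H injured libraries 1 and 2 in turn, adjusted p 0.133 and 0.0743). Col15a1, its relative in muscle and vessel membranes, was at 2.07 (SE 0.86, adjusted p = 0.0887) in C3H, where adjusted p was 0.00345 with the animal as a block, where 17.7% of all genes rose.

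Of the 4 tested cartilage genes 1, Col11a1, rose in C3H, and the others were at 1.20 (Col9a2), 0.07 (Col11a2) and -0.06 (Col9a3) there. Col11a1, a fibrillar chain that sets fibre diameter in cartilage and also occurs outside it, had normalised counts of 48.5, 122 and 28.3 in B6 uninjured libraries 1 to 3, 187, 319 and 170.2 in B6 injured libraries 1 to 3, 96.0, 7.33 and 12.4 in C3H uninjured libraries 1 to 3, and 4081 and 3024 in C3H injured libraries 1 and 2. The C3H injured libraries were over 9 times as high as any other library, and the injured libraries lay above the uninjured ones in B6 too. Its difference was 7.31 (SE 0.85, adjusted p = 0.000163) in C3H, the largest of all collagen genes, and 1.95 (SE 0.76, adjusted p = 0.364) in B6. The C3H difference lay between 6.52 and 8.38 over the 23 alternatives. Without C3H uninjured library 1 it was 8.38 (adjusted p = 2.38e-05) in C3H, and without C3H injured library 1 or 2 adjusted p was 0.00268 and 0.00398.

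Col11a2, the partner of Col11a1 in cartilage, had 16.6, 0 and 14.1 in B6 uninjured libraries 1 to 3, 10.6, 22.8 and 24.1 in B6 injured libraries 1 to 3, 34.7, 18.8 and 18.6 in C3H uninjured libraries 1 to 3, and 19.9 and 29.7 in C3H injured libraries 1 and 2. Its groups overlapped in both strains (1.57 (SE 0.90, adjusted p = 0.449) in B6, 0.07 (SE 1.01, adjusted p = 0.963) in C3H). Col2a1, the main cartilage collagen gene and the one that defines the tissue, had 3 and 17 reads in all over the B6 uninjured and injured libraries, and 1 and 9 over the C3H ones. It was not tested, and its injured-to-uninjured ratio of depth-scaled reads was 3.37 (95% counting interval 0.974 to 17.9) in B6 and 10.8 (1.50 to 474) in C3H. Intervals of this kind cover counting error only.

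Col9a2, a chain of the FACIT collagen of cartilage, was singled out after its values were seen. It had 1 read over the 3 B6 uninjured libraries and 150 over the 3 B6 injured ones, a ratio of 89.1 (95% counting interval 15.8 to 3543). Its normalised counts were 1.18, 0 and 0 in B6 uninjured libraries 1 to 3, 34.2, 44.8 and 43.8 in B6 injured libraries 1 to 3, 27.7, 1.05 and 5.33 in C3H uninjured libraries 1 to 3, and 24.2 and 9.89 in C3H injured libraries 1 and 2. The B6 groups were far apart, while in C3H library 1 was high in both regions and the groups overlapped. Adjusted p in B6 was 0.137, and 0.0233 with the animal as a block, where 0.115% of all genes rose. It was 0.0447 without C3H uninjured library 1, where 0.0203% of all genes rose.

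Among the other collagens Col8a1, Col8a2 and Col28a1 rose in C3H (3 of 7 tested, median 1.17). Col8a1 and Col8a2 encode the short chains of type VIII collagen, a network former of vessels and of remodelling tissue. Col8a1 had normalised counts of 3036, 1968 and 1909 in B6 uninjured libraries 1 to 3, 6096, 6267 and 4974 in B6 injured libraries 1 to 3, 1552, 291 and 1218 in C3H uninjured libraries 1 to 3, and 9440 and 3638 in C3H injured libraries 1 and 2. Its injured libraries lay above the uninjured ones in both strains, with 2.84 (SE 0.59, adjusted p = 0.00425) in C3H and 1.35 (SE 0.53, adjusted p = 0.364) in B6.

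Col8a2 had 130.2, 18.7 and 40.1 in B6 uninjured libraries 1 to 3, 359.6, 426 and 432 in B6 injured libraries 1 to 3, 75.3, 2.09 and 43.5 in C3H uninjured libraries 1 to 3, and 1230 and 167 in C3H injured libraries 1 and 2. The 3 B6 injured libraries were close to each other, whereas the 2 C3H injured libraries differed by more than 7 times. The difference was 4.38 (SE 1.21, adjusted p = 0.0172) in C3H and 3.10 (SE 1.08, adjusted p = 0.364) in B6, where adjusted p was 0.0432 with the animal as a block. Without C3H injured libraries 1 and 2 in turn, adjusted p in C3H was 0.179 and 0.0283 for Col8a2 and 0.0556 and 0.0140 for Col8a1.

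Col28a1, a chain found around glia of peripheral nerve, rose in C3H by 1.17 (SE 0.40, adjusted p = 0.0443), with 0.0513 as adjusted p with the animal as a block, and was called in 12 of 23 alternatives. Without C3H injured library 1 or 2 its adjusted p was 0.136 and 0.206. The transmembrane collagen genes Col13a1, Col23a1 and Col25a1 were at -0.87, 0.39 and 0.16 in C3H and -0.87, 0.31 and -0.45 in B6, with none called. Col26a1 was at 1.25 and 1.44, and Col17a1, the hemidesmosome collagen of epithelia, had at most 13 reads in a library and was not tested.

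Whether injury acted differently in the strains was tested by the interaction term, the difference in C3H minus that in B6. Of the 38 collagen genes 1, Col11a1, was called higher and 0 lower, where 1.5% of all tested genes were higher and 0.0678% lower. The term of Col11a1 was 5.36 (SE 1.15, adjusted p = 0.0391). Its adjusted p was 0.00471 with the animal as a block, where 2.96% of all genes were higher, and 0.0541 with edgeR. The call held without B6 uninjured library 3 (0.0260) and without C3H uninjured library 1 (0.00401), and was lost without any of the other 9 libraries, with adjusted p between 0.0542 and 0.208 and terms between 4.66 and 5.64.

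The interaction terms of all 8 fibrillar genes were positive, with a median of 2.24. These genes were measured in the same libraries, so their signs are not separate observations. Of all 38 terms 27 were positive, against 48.7% of all tested genes, with a median of 1.02 against -0.02. None of the 8 fibrillar genes was called. Among them Col5a2 had 2.28 (SE 0.77, adjusted p = 0.191), Col1a2 2.65 (SE 1.02, adjusted p = 0.257) and Col1a1 2.68 (SE 1.26, adjusted p = 0.366). Without C3H uninjured library 1, 6 collagen genes were called (Col11a1, Col12a1, Col1a1, Col1a2, Col24a1 and Col5a2), where 1.78% of all genes were higher. The most negative term was that of Col9a2, at -3.80 (SE 1.26, adjusted p = 0.187), and 0.0820 was its adjusted p with the animal as a block. With this block Col8a1 passed at 0.0206, against 0.432 without it.

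The regions of an animal give the same comparison within a heart. The median injured minus uninjured difference over the 38 genes was 0.31, 1.40 and 1.09 in B6 mice 1 to 3, and 1.20 and 2.70 in C3H mice 1 and 2. The number of genes higher in the injured region was 33, 35 and 36 in the B6 mice and 29 and 33 in the C3H mice. In all 5 animals 27 of the 38 genes were higher. The share of all tested genes higher in each animal, or in all of them, was not computed. In the fit over libraries 51.2% of all tested genes had a positive difference in B6 and 50.6% in C3H. B6 mouse 1 had the highest uninjured levels of its strain for Col1a1, Col1a2 and Col3a1, and C3H mouse 1 those of C3H.

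**Figure D4:**
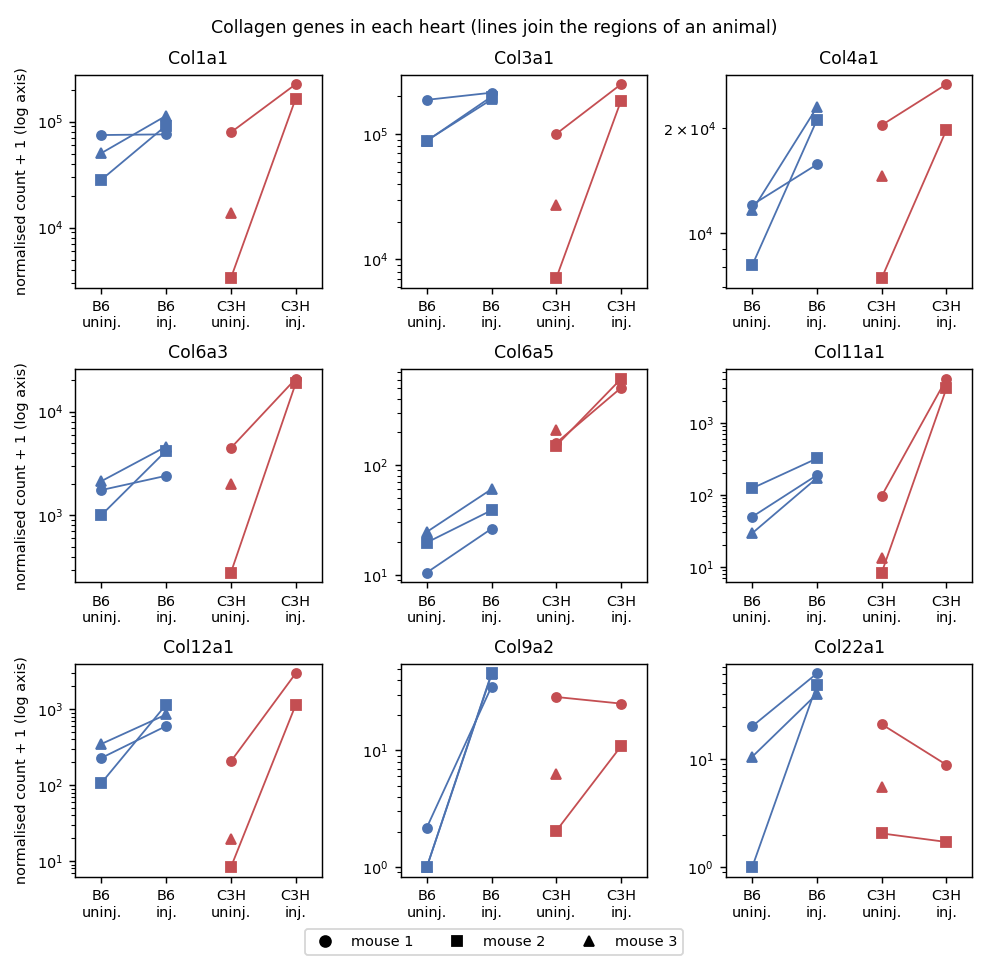
Each panel shows normalised counts + 1 of a gene on a log axis, with a symbol for each mouse (blue B6, red C3H) and lines joining the uninjured and injured region of a heart. The C3H lines are the steepest for Col11a1 and Col12a1, and all Col6a5 values of C3H lie above those of B6. Col22a1 goes up in the 3 B6 mice and down in C3H mouse 1. In C3H mouse 2 its line joins 1 read in each region.

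In uninjured regions C3H and B6 differed in 1 collagen gene, Col6a5, which was higher in C3H, where 1.32% of all genes were higher and 1.79% lower. The 8 fibrillar genes were all lower in C3H, with a median of -1.67, but none was called. Col24a1 was at -3.91 (SE 0.98, adjusted p = 0.0536), Col3a1 at -2.08 (SE 0.73, adjusted p = 0.168) and Col1a1 at -1.62 (SE 0.84, adjusted p = 0.372). These values depended on the C3H uninjured libraries. Library 2 had the lowest value of all 11 libraries for each of the 8 fibrillar genes, and fits without it are not given here gene by gene. Over all tested genes 175 were lower in C3H without library 2, against 264 with all libraries. With library 1 left out, 8 collagen genes were lower in C3H, where 1.6% of all genes were. They were Col1a1, Col1a2, Col3a1, Col5a2, Col24a1, Col11a1, Col12a1 and Col14a1. Col1a1 was then at -2.81 (adjusted p = 0.0242) and Col3a1 at -3.04 (adjusted p = 0.0127). Only 3 genes were higher and 3 lower without overlap, where 7.63% of all genes were higher and 9.27% lower.

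In injured regions 2 collagen genes were higher in C3H, Col11a1 (4.01 (SE 0.85, adjusted p = 0.0176)) and Col6a5, and 0 were lower, where 3.72% of all genes were higher and 3.34% lower. The call of Col11a1 was lost without B6 injured library 1 (0.0613), C3H injured library 1 (0.0871) or C3H injured library 2 (0.166). Over the 38 genes the median was 0.54, with 18 genes higher and 2 lower without overlap (24.9% and 24.2% of all genes). All 5 type VI genes were higher without overlap. Col1a1 was at 1.06 (SE 0.94, adjusted p = 0.524) and Col3a1 at 0.10 (SE 0.81, adjusted p = 0.954). Col22a1 was lower in C3H by a value that missed the threshold (-3.66 (SE 1.24, adjusted p = 0.0976)).

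Chains of a trimer were compared per kilobase of their longest annotated transcript, as a description with no test. Col3a1 and Col1a1, chains of the different types III and I, were compared in the same way. The ratio of Col1a1 to Col1a2 had a median of 1.01 over the 11 libraries (0.677 to 1.34). The type I trimer itself holds more alpha-1 than alpha-2 chains. With all annotated exons as the length it was 2.11, so the ratio depends on the length used. Col4a1 to Col4a2 stayed between 1.36 and 1.96, and Col6a1 to Col6a2 between 1.12 and 2.02. Col3a1 to Col1a1 was 1.18 and 1.19 in the C3H injured libraries, below all other libraries (1.35 to 3.32). Col8a1 to Col8a2 was 19.8 to 89.4 in B6 uninjured and 9.76 to 14.4 in B6 injured libraries, and 17.5 to 118 in C3H uninjured against 6.51 and 18.5 in C3H injured libraries.

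Many of the collagen genes have an exon structure that the choice by name did not use. Triple helix exons often have 54 coding bases or another multiple of 9, which is a whole number of Gly-X-Y triplets. In the GENCODE annotation at hand 23.3% of the 1878 coding exons of the 40 genes had 54 bases, against 0.674% over 21924 protein-coding genes. The share was 47.4% in fibrillar genes, 45.4% in cartilage genes, 18.6% in FACIT genes, 7.73% in type VI genes, 7.66% in the other collagens and 4.44% in basement membrane genes. Col8a1 and Col8a2, with 2 coding exons each, have none of this length and none that is a multiple of 9, and Col26a1 has none of 54 bases. Multiples of 9 made up 61.9% of the exons of all 40 genes and 14.5% of those of all protein-coding genes.

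Collagen chains are modified in the endoplasmic reticulum, folded, secreted, trimmed and crosslinked, and are bound by receptors and cut by collagenases. Growth factors and transcription factors act on the collagen genes. Of 52 listed genes of these steps, 10 of such factors among them, 51 were in the table and tested. In C3H 32 of them rose and 0 fell, where 15.3% of all genes rose, with a median of 1.37. In B6 0 were called, with a median of 0.68.

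By step, C3H calls were 7 of 13 genes of prolyl and lysyl hydroxylation, 1 of 3 of chaperones and secretion, 3 of 6 of propeptide cleavage, 5 of 5 of crosslinking, 4 of 8 receptors, 5 of 6 collagenases and gelatinases, and 7 of 10 growth factors and transcription factors (Tgfb1, Tgfb2, Tgfb3, Ctgf, Scx, Sox5, Sox6, Sox9, Runx1 and Runx2). Of the hydroxylation genes P4ha3, a prolyl hydroxylase subunit, had 4.71 (SE 0.75, adjusted p = 0.00101) and P3h3 1.68 (SE 0.52, adjusted p = 0.0285). Serpinh1, the collagen chaperone HSP47, was at 1.16 (SE 0.71, adjusted p = 0.229), and Creb3l1, a transcription factor of secretory load, rose by 1.47 (SE 0.42, adjusted p = 0.0197). For trimming, Adamts2 rose by 2.29 (SE 0.46, adjusted p = 0.00354) and Bmp1 by 1.96 (SE 0.37, adjusted p = 0.00246). All 5 lysyl oxidase genes rose, led by Loxl3 with 3.78 (SE 0.50, adjusted p = 0.000363) and Lox with 3.08 (SE 0.49, adjusted p = 0.000970).

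The collagen receptor genes Itga10 and Itga2 rose in C3H by 3.60 (SE 0.55, adjusted p = 0.000793) and 3.47 (SE 1.16, adjusted p = 0.0393). Itga2 was low, at 6.93, 1.05 and 0 in C3H uninjured libraries 1 to 3 and 30.3 and 24.0 in C3H injured libraries 1 and 2. Mmp13, a collagenase, rose by 4.21 (SE 0.63, adjusted p = 0.000757) and Ctsk, a lysosomal collagen-degrading protease, by 4.00 (SE 0.46, adjusted p = 0.000149). Runx1 and Runx2, factors of blood and bone cells, rose by 3.98 (SE 0.34, adjusted p = 2.64e-05) and 2.63 (SE 0.29, adjusted p = 0.000114). The interaction term was called for 5 of the 51 genes, where 1.5% of all genes were higher: Mmp13 with 4.58 (SE 0.85, adjusted p = 0.0218), Ctsk with 3.51 (SE 0.62, adjusted p = 0.0166), Mmp14, a membrane collagenase, with 2.04 (SE 0.39, adjusted p = 0.0245), Runx1 with 2.86 (SE 0.46, adjusted p = 0.0113) and Runx2 with 1.87 (SE 0.39, adjusted p = 0.0337).

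Cell type markers moved with the collagen genes in part. The summed level of 7 fibroblast markers, all detected, was 53427 to 78201 over all 11 libraries and 64581, 60192 and 61197 in C3H uninjured libraries 1 to 3, whose collagen shares differed most. Gsn (39347, 25432 and 34465 in the latter) and Dcn (13870, 28980 and 16559) made up most of that sum and moved in opposite directions. Lum (5043, 1655 and 5055), Dpt (3049, 1505 and 3052) and Tcf21 were lowest in library 2, and Pdgfra and Ddr2 in library 3. The sum thus does not stand for each marker. Of these 7, in C3H 2 rose (Lum and Pdgfra) and 1 fell (Gsn). The summed level of 5 myofibroblast markers was 16102, 4200 and 10119 in C3H uninjured libraries 1 to 3 and 50227 and 29480 in the injured ones, and 20689 to 46260 in B6 uninjured and 41497 to 67550 in B6 injured libraries. In C3H 3 of the 5 rose, with 3.41 (SE 0.66, adjusted p = 0.00282) for Postn, which is secreted by activated fibroblasts, and Acta2, smooth muscle actin, was at -0.09 (SE 0.54, adjusted p = 0.909).

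Macrophage markers (8 of 8 detected) summed to 12496 to 21116 in C3H uninjured and 71609 and 124583 in C3H injured libraries, and to 21967 to 31325 and 35111 to 49399 in B6 uninjured and injured libraries. Of the chondrocyte list 5 of 7 symbols were in the table, with a sum of 33.5 to 208 in uninjured, 330 to 394 in B6 injured and 905 and 306 in C3H injured libraries. Of its genes Acan, the cartilage proteoglycan aggrecan, rose in C3H by 6.17 (SE 0.99, adjusted p = 0.00108), Sox9 by 2.23 (SE 0.76, adjusted p = 0.0435) and Matn3 by 2.60 (SE 0.88, adjusted p = 0.0423). Acan and Matn3 were near 0 in C3H uninjured libraries 1 to 3, at 0.99, 3.14 and 0 and at 2.97, 0 and 0. In C3H injured libraries 1 and 2 Acan was at 200 and 104. Matn3 was at only 10.4 and 7.07 there, against 14.7, 10.2 and 21.5 in B6 injured libraries 1 to 3. Lect1 was at 1.06 (SE 0.92, adjusted p = 0.408), and Hapln1 was too low to be tested, at 0 to 8.48 in all libraries. Sox9 made up most of the summed level, and its groups overlapped in C3H, with 184, 19.9 and 108 in uninjured libraries 1 to 3 and 683 and 180.2 in injured libraries 1 and 2. Col2a1 was near 0 throughout. Of the other marker lists, 6 of 8 cardiomyocyte genes and 1 of 5 endothelial genes fell in C3H, with 0 higher in either list. Of 5 mural genes 1 rose and 1 fell there, of 4 Schwann cell genes 1 rose, and of 4 epicardial genes 0 were called. The osteoblast list had 1 tested gene, Alpl, which was called lower in C3H at -1.08. Over all tested genes 15.3% rose and 15.4% fell. The part that cell type markers have in the collagen differences was not tested.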

How the data were processed

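RNA of injured and uninjured heart regions of 2 mouse strains was sequenced in 11 libraries. The authors used TopHat2 2.0.11 and build mm9 for alignment, HTSeq 0.6.1 for counting and DESeq for scaling, per the submitters' processing notes. Gene annotation and strandedness are not stated there, so reads of overlapping genes on opposite strands may not be told apart. The deposited values are a signal, namely gene-level counts divided by a size factor per library: 100% of values were whole multiples of a step per library (tolerance 1e-06), which gave 9699985 to 22138459 reads per library.

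Values were analysed as log2(normalised count + 1), a scale on which changes at low counts look smaller than they are. A gene was tested if 2 or more libraries had 10 or more (14751 of 15274). A model with 4 group means was fitted over all 11 libraries by limma 3.58.1 (R 4.3.3, eBayes with a trend), with Benjamini-Hochberg adjustment over all tested genes, a threshold of 0.05 and two-sided p. The labels name the mouse, so that replicates are animals and 5 animals have both regions. Residuals of an animal's regions had correlations of 0.276, -0.0140 and 0.524 (B6 mice 1 to 3) and 0.305 and 0.575 (C3H mice 1 and 2). Blocked values are from limma with the animal as a fixed term, in which C3H uninjured library 3 has no partner.

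Collagen genes, classes, lists of pathway and marker genes and tests were chosen with earlier results of these data known. Values in every library are given for the 2 most abundant genes of each class, for those past the threshold in B6, in the interaction or between uninjured strains, and for the 6 largest increases in C3H. Of each pathway list the 2 genes with the largest change past the threshold in C3H are named. Other genes named were chosen after their values were seen. Alternatives were the pseudocount (0.5 and 4), no filter, quantile and TMM scaling, edgeR 4.0.16 and DESeq2 1.42.0 on the recovered reads, only the groups compared, the animal as a block, empirical Bayes settings, and each library left out in turn. Where an arm is left with 1 sample, it is assumed to vary like the other groups. Transcript lengths and exons are from GENCODE and promoters from RefSeq, both on GRCm38, of which only names and lengths were joined to the values. The script was tested on simulated data.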

Additional observations from a re-analysis of the deposited data

Results flagged for a closer look

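The injury difference of Col11a1 was larger in C3H than in B6 by 5.36 (SE 1.15) on the log2 scale, with an adjusted p of 0.0391 for the interaction term in limma. This call was lost with edgeR and in most of the fits that left out a library. The injured region was higher in 5 of 5 animals, by 1.92, 1.37 and 2.55 in B6 mice 1 to 3 and by 5.39 and 8.50 in C3H mice 1 and 2.

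By sign, the differences of Col22a1 and Col4a4 went in opposite directions in the animals of the 2 strains. They were found by looking through all 38 tested collagen genes, and the share of all tested genes with such signs was not computed. For Col22a1 the difference was 1.62, 5.59 and 1.93 in B6 mice 1 to 3 and -1.24 and -0.26 in C3H mice 1 and 2, with an interaction term of -3.71 and an adjusted p of 0.340. For Col4a4, a type IV chain of specialised membranes, the differences were 0.04, 2.29 and 0.39 in the B6 mice and -1.35 and -0.84 in the C3H mice, with an interaction term of -2.03 and an adjusted p of 0.442. Neither term passed the threshold, and the value of 0.04 is close to no difference. C3H mouse 2 had 1 read of Col22a1 in each region, so its value of -0.26 reflects the size factors only.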

How the results depend on the processing

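The number of collagen genes called in C3H stayed within 1.5 times of 23 under all alternatives but 3. It was 12 with only the groups compared in the fit, and 10 to 25 when each library was left out in turn, with 10 without either C3H injured library. In B6 the count was 0, and 1 with DESeq2 (Col9a2), which called 31 of all 14751 genes higher and 14 lower. When libraries were left out the B6 count was 0 to 1. For the interaction the count of 1 became 0 with edgeR or without the trend and 3 with DESeq2, and lay between 0 and 6 when libraries were left out. Of all 14751 genes DESeq2 called 543 higher and 179 lower for the interaction. Between uninjured strains the count of 1 was 2 with a pseudocount of 4 or with DESeq2, and 1 to 9 when libraries were left out. Of all 14751 genes 205 were higher and 260 lower there with that pseudocount, and 375 and 541 with DESeq2. Between injured strains the count of 2 was 4 with DESeq2 and 8 with only the groups compared, and 1 to 4 when libraries were left out. Of all 14751 genes 974 were higher and 1040 lower there with DESeq2, and 822 and 740 with only the groups compared.

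Pairing by animal, with the replicate block as a random effect (consensus correlation 0.392), gave counts of 1 in B6 and 3 for the interaction (Col11a1 and Col7a1 higher, Col9a2 lower at -3.84). Of all tested genes it called 13 higher and 3 lower in B6, and 581 and 196 for the interaction. As a fixed effect the block gave 2 in B6 (Col8a2 and Col9a2) and 2 for the interaction (Col11a1 and Col8a1). Of all tested genes the fixed block called 17 higher and 3 lower in B6, and 437 and 54 for the interaction. Some differences that were not called changed sign, and not all of them were near 0. Col11a2 in C3H was at 0.07, and at -0.38 after quantile normalization, -0.071 with the block as a fixed effect and -0.20 to 0.36 when libraries were left out. Leaving out libraries gave -1.85 to 0.52 for Col22a1 (-0.67 with all libraries) and -2.20 to 0.03 for Col4a3 in C3H (-1.08 with all, 0.033 without C3H injured library 2), and -0.50 to 0.23 for the interaction of Col4a1. Quantile normalization shifted the median of all genes in C3H to -0.11. The cause of these changes was not tested.

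With the 10 most abundant genes over all libraries left out, among them Col3a1 as the only collagen gene, the collagen share was 1.98% in B6 injured and 3.73% in C3H injured libraries. With all annotated exons as the length, the median ratio was 2.11 for Col1a1 to Col1a2, 1.31 for Col3a1 to Col1a1, 0.962 for Col5a1 to Col5a2 (0.671 with the longest transcript) and 2.05 for Col6a1 to Col6a2. The 2 C3H injured libraries, and low reads for Col9a2, Col22a1, Col24a1 and Col2a1, limit what these data can show.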
